A study of Mus musculus with 536 samples.

Results

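DNA replication genes were followed in the circulating blood of irradiated mice. The set was a list of 39 genes for copying the genome and for making its building blocks, of which 37 were measured among the 12393 genes on the array, and Gins2 and Chaf1a were not analysed here. Where a gene had several probe sets the brightest, averaged across every array, stood for it, whatever its response. By role there were 10 in origin licensing, 3 in helicase activation, 8 polymerase and primase subunits, 7 clamp, clamp loader and RPA genes, 2 that join Okazaki fragments, 5 in nucleotide synthesis and 2 in the copying of chromatin.

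Replication begins when the origin recognition complex, with Cdc6 and Cdt1, loads the ring of Mcm proteins onto DNA. Cdc45, Mcm10 and the GINS complex turn that ring into a working helicase, primase and the polymerases copy the strands behind it, and Pcna, loaded by the Rfc complex, holds the polymerases in place. Ribonucleotide reductase (Rrm1 and Rrm2), thymidylate synthase (Tyms), thymidine kinase (Tk1) and dUTPase (Dut) supply the nucleotides. Most mature blood cells do not divide and divide only as precursors in the bone marrow or, for lymphocytes, after activation. Pcna and the RPA proteins also serve DNA repair.

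Peripheral blood of female and male C57BL/6 mice aged 10 to 12 weeks was drawn by terminal cardiac puncture after total body exposure to a caesium gamma source, and its globin-reduced RNA was hybridised to Affymetrix mouse arrays, 1 array per mouse apart from 2 repeat scans. In the dose-time set, 240 mice of unstated sex that received no agent fell into 48 groups of 5, given no radiation (0 cGy) or doses of 100, 200, 300 and 450 cGy or, above these, 600, 800 and 1050 cGy, and sampled at 6, 24, 48, 72, 120 or 168 hr. In the agent set, 226 mice (111 female and 115 male) in 48 groups of 3 to 5 received no agent, GCSF (the granulocyte growth factor) or LPS (bacterial endotoxin) with 0, 200, 300 or 600 cGy and were sampled at 6 or 24 hr. A smaller agent set held 50 mice in 9 groups of 5 or 6 with no agent, GCSF or LPS and 0, 150 or 600 cGy at 6 hr. A 7-day set compared 10 mice at 150 cGy with 3 at 0 cGy, all at 168 hr and with no agent, and its fit also held 3 unirradiated mice at 6 hr and 2 at 24 hr. The labels used here do not say when the agents were given, and nothing but separate samples is stated for replicates, so p-values measure the spread between these mice.

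Levels are given as deposited, in log2 units, so a difference of 1 is a doubling of signal. On that scale 18 of the 37 genes lay above the median gene and 11 lay below the 30th percentile of genes (Orc1, Cdc6, Mcm5, Cdc45, Pola1, Pole, Pole2, Rfc4, Tyms, Chaf1b and Uhrf1). Of the 21 genes with more than 1 probe set, the other probe set of Fen1 ran against the one used (r = -0.22 over the 240 mice), as did those of Prim2 (r = -0.14) and the third of Cdt1 (r = -0.35), so Fen1 and Prim2 are uncertain.

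The markers of blood were high at 0 cGy and 6 hr, with medians of 14.27 for Alas2 (red cells), 11.77 for Ms4a1 (B cells), 9.36 for Cd3e (T cells) and 12.76 for S100a8 (neutrophils), and those of the marrow precursor markers Mpo and Kit were 4.22 and 4.50. Among the samples, 2 features moved with dose and time and stand beside the results below. The first is the spread of all genes within an array, whose mean SD was 1.87 in the 0 cGy group at 6 hr and 1.70 to 1.75 in the irradiated groups of that time, and 1.88 at 0 cGy against 2.03 to 2.14 at 72 hr. Over the 48 groups, 16 of the replication genes correlated with that spread below -0.5 (Fen1 at -0.97, Prim2 at -0.90, Rrm2 at -0.84) and 7 above 0.5 (Pold2 and Mcm6 at 0.83, Rpa1 at 0.81, Pcna at 0.79). The part of the spread in the results was not tested beyond fits with it as a covariate. These were run only for the dose trends of the dose-time set and their slope change from 6 to 168 hr. They are given where they change a count. No such fit was run for single doses, the agent sets or the 7-day set. The second is the liver transcript Alb, which reached 10 or more in all 5 mice of each group from 450 cGy up at 120 and 168 hr, in 0 of 5 controls at those times, and in 3, 3 and 2 of 5 controls at 24, 48 and 72 hr.

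Some promoters of these genes carry binding words of E2F, the factor family that switches on S phase genes. The sequences of 5 genes that rose with LPS are shown here, all with words upstream of a transcript start. For Cdc6, Pola1 and Uhrf1 that start lies inside the annotated gene, and so does the sequence shown. Mcm3 and Pole2 also rose with LPS and have words after the start, which are not shown. Mcm7, Orc1 and Rfc3 have words upstream of a start too, but were not called higher with LPS at 0 cGy and 24 hr, and are not shown. In RefSeq promoters of build GRCm38.p6 (250 bases before to 50 after a transcript start), 32 of the 37 genes were matched, by 38 promoters. The search used TTTCCCGC, TTTGGCGC, TTTCGCGC and TTTGCCGC on either strand, and capitals below mark these words, overlapping ones as 1 run.
Cdc6, chr11:98907993-98908040, plus strand: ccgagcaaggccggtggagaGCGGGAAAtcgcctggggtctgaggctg
Mcm5, chr8:75109336-75109387, plus strand: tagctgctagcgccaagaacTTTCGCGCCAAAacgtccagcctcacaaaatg
Mcm6, chr1:128359725-128359835, minus strand: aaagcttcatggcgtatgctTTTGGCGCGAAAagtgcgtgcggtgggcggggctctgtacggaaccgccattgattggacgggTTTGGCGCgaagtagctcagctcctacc
Pola1, chrX:93632266-93632313, minus strand: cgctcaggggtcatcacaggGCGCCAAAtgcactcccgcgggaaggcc
Uhrf1, chr17:56304108-56304155, plus strand: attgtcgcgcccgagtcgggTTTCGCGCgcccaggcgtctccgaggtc
An E2F word was found in a promoter of 13 of the 32 genes (40.6%), against 402 of the 9887 array genes with a promoter (4.07%). Counted by promoter and not by gene, 744 of all 32851 promoters held one (2.26%). By gene, CCAAT was in a promoter of 59.4% of the replication genes and 42.3% of array genes, and the GC box GGGCGG in 75% and 61.05%. The cell cycle homology element (TTTGAA or TTCGAA) was in 18.8% and 17.3%. A match describes the letters only and is not a measured binding site.

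At 6 hr after irradiation Rpa1, Cdt1, Mcm6, Pold2, Pcna, Mcm7 and Prim1 were lower by 1 log2 unit or more at 600 cGy, and 4 dimmer genes were slightly higher. The dose trend, a least-squares slope over the 8 doses tested with limma and Benjamini-Hochberg adjustment over all genes at an adjusted p of 0.05, called 10 replication genes lower (18.5% of all genes were called lower) and 4 higher (16.2% of all genes). Over the 37 genes the median difference of 600 from 0 cGy was -0.14, against 0.13 over all genes. By role, 3 of 10 licensing genes, 2 of 8 polymerase and primase genes and 4 of 7 clamp, loader and RPA genes fell. Without replicate 3 (1 mouse of every group) 9 genes were called. A numbered replicate here is a mouse's position in its group, ordered by the code in its title and then by mouse number. In this blood RNA, fewer cells of a type and less RNA per cell cannot be told apart.

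Rpa1, the large subunit of the protein that coats single-stranded DNA, had levels of 8.18, 8.29, 8.30, 8.46 and 8.68 in the 5 mice at 0 cGy and 6 hr, and of 5.44, 6.18, 6.31, 6.32 and 6.35 at 600 cGy. Pcna, the sliding clamp, had levels of 9.44, 9.70, 9.71, 9.82 and 10.09 at 0 cGy. At 100 cGy Pcna had levels of 8.35, 8.68, 9.05, 9.14 and 9.15, and at 600 cGy of 8.07, 8.10, 8.21, 8.28 and 8.37. For both genes every irradiated mouse listed lay below every control, and for Pcna the 100 cGy mice already did. The difference of 600 from 0 cGy was -2.26 ± 0.29 (SE) for Rpa1, with an adjusted p for the trend of 4.9e-10, and -1.55 ± 0.22 for Pcna (adjusted p 1.2e-08). Rpa2 (-0.55 ± 0.21) and the loader subunit Rfc2 (-0.34 ± 0.11) fell as well.

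Among the licensing genes, Cdt1, the loading factor that is destroyed once replication starts, had levels of 8.71, 8.76, 8.79, 8.99 and 9.22 at 0 cGy and of 6.30, 6.95, 7.00, 7.10 and 7.24 at 600 cGy, a difference of -1.97 ± 0.25 (adjusted p 6.9e-10). Mcm6, a subunit of the helicase ring, had levels of 6.15, 6.46, 6.55, 6.79 and 7.20 at 0 cGy and of 4.19, 4.85, 4.97, 5.22 and 5.33 at 600 cGy. Its groups did not overlap. It differed by -1.72 ± 0.34, with Mcm7, its partner in the ring, at -1.47 ± 0.20. The ring subunits Mcm2 and Mcm3 did not pass the trend test, at 0.03 and 0.01. Most of the drop was already there at the lowest dose: at 100 cGy Rpa1 stood at -1.39, Cdt1 at -1.07, Mcm6 at -0.97 and Pcna at -0.88. The labels carry a title code of unstated meaning with 1 mouse of every group in each, and at 600 cGy Pcna, Rpa1, Cdt1, Mcm6 and Mcm7 were lower than control in 5 of 5 codes. Fitted over 100 to 1050 cGy alone, a choice made after seeing the data, the trend called 3 genes lower and 0 higher.

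The polymerase delta subunit Pold2 (-1.57 ± 0.26) and the primase subunit Prim1 (-1.07 ± 0.19) also fell at 6 hr. Cdc45, which activates the helicase, went the other way, with levels of 4.77, 4.79, 4.99, 5.02 and 5.20 at 0 cGy and of 5.15, 5.71, 5.79, 5.85 and 5.85 at 1050 cGy, where all but the lowest mouse lay above the controls. Orc1 (0.54 ± 0.13), the polymerase epsilon subunit Pole (0.49 ± 0.17) and Chaf1b (0.26 ± 0.15), a histone chaperone, also rose, and all 4 rising genes are dim on this array. With the array spread as a covariate 11 genes were lower and 1 higher, and Cdc45 and Orc1 no longer passed. With the dim genes left out, 9 genes were called in all.

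Cell type markers moved strongly at the same time. Of 17 B cell markers 16 fell (median -2.91) and of 19 T cell markers 14 fell (median -1.24), while 14 of 16 neutrophil markers rose (median 1.93). Of 26 mitosis genes 3 rose and 1 fell (median 0.24). Of 38 other replication genes outside the set, 19 fell and 3 rose, among them Topbp1, a checkpoint adaptor (-1.91), and Dtymk, thymidylate kinase (-1.52). The part of the cell mixture in the replication genes was not tested.

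At 24 hr 13 replication genes were called lower (19.8% of all genes) and 5 higher (18.9% of all genes). Clamp, loader and RPA genes made up 6 of the fallers and licensing genes 5. Cdt1 stood at -1.94 ± 0.25 at 600 cGy, Rpa1 at -1.46 ± 0.29, Mcm4 at -1.22 ± 0.24 and Pold2 at -1.20 ± 0.26. Of the 5 nucleotide genes Rrm2 and Dut rose, and Rrm1 (-0.05), Tk1 (-0.17) and Tyms (0.15) did not pass the trend. Rrm1 and Tk1 passed the any-dose test (adjusted p 0.0057 and 0.019), and Tyms did not. Rrm2, the regulated small subunit of ribonucleotide reductase, had levels of 6.37, 6.47, 6.56, 6.61 and 6.84 at 0 cGy and 24 hr, of 5.51, 6.02, 6.30, 6.38 and 7.17 at 300 cGy, and of 7.29, 7.33, 7.38, 7.93 and 8.16 at 600 cGy. The 300 cGy mice therefore spread on both sides of the controls while all 5 at 600 cGy lay above them, a difference of 1.05 ± 0.27 (adjusted p for the trend 0.0035). Dut, which clears dUTP so that uracil stays out of DNA, had levels of 7.59, 7.93, 7.95, 8.18 and 8.21 at 0 cGy and of 8.83, 9.23, 9.27, 9.40 and 9.43 at 800 cGy, with no overlap.

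The 24 hr count of 18 was 11 without replicate 4, 10 without replicate 5, 11 with the array spread as a covariate (2 higher, 9 lower) and 11 without the 0 cGy mice (7 higher, 4 lower). The dose response at this time was bowed, with the mean over the 37 genes, taken for each mouse relative to the 0 cGy mean, with a median of -0.44 in the 300 cGy group, -0.37 in the 600 cGy group and -0.18 in the 1050 cGy group. Alb reached 10 or more in 3 of 5 mice at 0 cGy, 5 of 5 at 300 cGy, 4 of 5 at 600 cGy and 2 of 5 at 1050 cGy. The part of liver RNA in this shape was not tested.

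At 48 and 72 hr the falls widened to more genes and a different group led them. The trend called 21 genes lower at 48 hr (23.3% of all genes) and 1 higher (24.0% of all genes), and 20 lower at 72 hr (27.1% of all genes) and 3 higher (26.3% of all genes). The median difference of 600 from 0 cGy over the 37 genes was -0.24 at 48 hr and -0.28 at 72 hr, against -0.07 and -0.10 over all genes. At that dose Rrm2, the clamp loader subunits Rfc3 and Rfc4, the polymerase delta catalytic subunit Pold1, Orc6 and Fen1, the flap nuclease of Okazaki fragment joining, had the 6 largest falls at both times. Genes that led at 6 hr were nearer to control: Rpa1 stood at -0.19 at 600 cGy at 48 hr and 0.60 at 72 hr, and Pcna at -0.09 and 0.41.

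Rrm2 at 72 hr had levels of 6.87, 7.06, 7.14, 7.21 and 7.54 at 0 cGy, of 7.00, 7.07, 7.09, 7.35 and 7.47 at 100 cGy, and of 4.43, 4.50, 4.53, 4.87 and 4.91 at 1050 cGy. The 100 cGy mice overlapped the controls, and at 1050 cGy every mouse lay more than 1 log2 unit below them, with a group difference of -2.52. At 600 cGy the difference was -1.58 ± 0.27 (adjusted p for the trend 1.0e-26), after -1.51 ± 0.27 at 48 hr. Rfc4 showed a sharp step between doses at 48 hr, with levels of 5.10, 5.30, 5.49, 5.55 and 5.72 at 0 cGy, of 5.10, 5.46, 5.70, 5.71 and 6.11 at 100 cGy, and of 3.86, 3.95, 4.05, 4.17 and 4.65 at 200 cGy. The 200 cGy mice lay below all 10 mice at the lower doses, and at 600 cGy Rfc4 differed by -1.44 ± 0.18.

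Mcm7 also fell at the upper doses. At 72 hr it had levels of 7.45, 7.65, 7.72, 7.88 and 8.54 at 0 cGy, of 6.75, 7.68, 7.78, 7.86 and 8.09 at 200 cGy, and of 5.73, 5.88, 5.95, 6.01 and 6.15 at 1050 cGy. The low dose group overlapped the controls and the 1050 cGy group did not, with a difference of -1.91. At 600 cGy and 72 hr Pold1 stood at -1.42 ± 0.17, Rfc3 at -1.46 ± 0.26, Fen1 at -1.37 ± 0.19 and Orc6 at -0.91 ± 0.19.

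Dut rose instead, and it was the only gene of the 37 called higher at 48 hr (1.43 ± 0.24 at 600 cGy). At 72 hr it had levels of 7.18, 7.88, 7.92, 8.04 and 8.10 at 0 cGy and of 9.90, 9.97, 10.49, 10.49 and 10.67 at 450 cGy, well apart, and differed by 2.09 ± 0.24 at 600 cGy. The rise was a step rather than a slope, since Dut stood at 1.23 at 100 cGy and 48 hr, and without the 0 cGy mice its 48 hr slope turned to -0.0089 per 100 cGy. Mcm6 also rose at 72 hr. It had levels of 5.61, 6.16, 6.30, 6.35 and 7.81 at 0 cGy and of 7.66, 7.82, 7.85, 8.04 and 8.18 at 600 cGy, so that 1 control mouse reached the irradiated range. It differed by 1.47 ± 0.34 and Pold2 by 0.69 ± 0.26, but with the array spread as a covariate the slopes of Mcm6 and Pold2 turned to -0.0077 and -0.0021 per 100 cGy.

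Other genes of the set moved less. Mcm2, a ring subunit, had levels of 7.39, 7.43, 7.46, 7.50 and 7.71 at 0 cGy and 24 hr and of 6.91, 6.95, 7.04, 7.10 and 7.17 at 600 cGy. Those groups did not overlap, yet the trend over all doses did not pass. Mcm2 passed the any-dose test at 24 hr (adjusted p 5.8e-05). Lig1, the ligase that seals Okazaki fragments, had levels of 6.55, 6.66, 6.68, 6.89 and 7.34 at 0 cGy and 48 hr and of 6.09, 6.35, 6.45, 6.54 and 6.61 at 600 cGy, which overlapped, with a difference of -0.42 ± 0.15. Tyms had levels of 3.62, 3.81, 3.91, 4.44 and 4.53 at 0 cGy and 6 hr and of 3.92, 4.14, 4.28, 4.55 and 4.64 at 600 cGy, which overlapped, and it did not pass the 6 hr trend.

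Red cell and mitosis genes fell at these times. Of 23 erythroid markers 17 fell at 48 hr (median -1.32) and 20 at 72 hr (median -2.04), and of 26 mitosis genes 15 and 18 fell, led by Nusap1, a spindle protein (-5.98 at 48 hr). Platelet markers rose, 10 of 13 at 48 hr and 11 of 13 at 72 hr. Of the 38 other replication genes, 27 fell at 48 hr and 24 fell at 72 hr. Among those with the smallest p were Rpa3, the small RPA subunit (-2.65 at 48 hr), Orc4, an origin recognition subunit (-2.09 at 48 hr), and the histone chaperone Asf1a (-1.83 at 48 hr). At 72 hr the replication count was 15 with arrays of high Alb left out and 14 without the 0 cGy mice. Whether the red cell markers account for any of the falls was not tested.

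**Figure D1:**
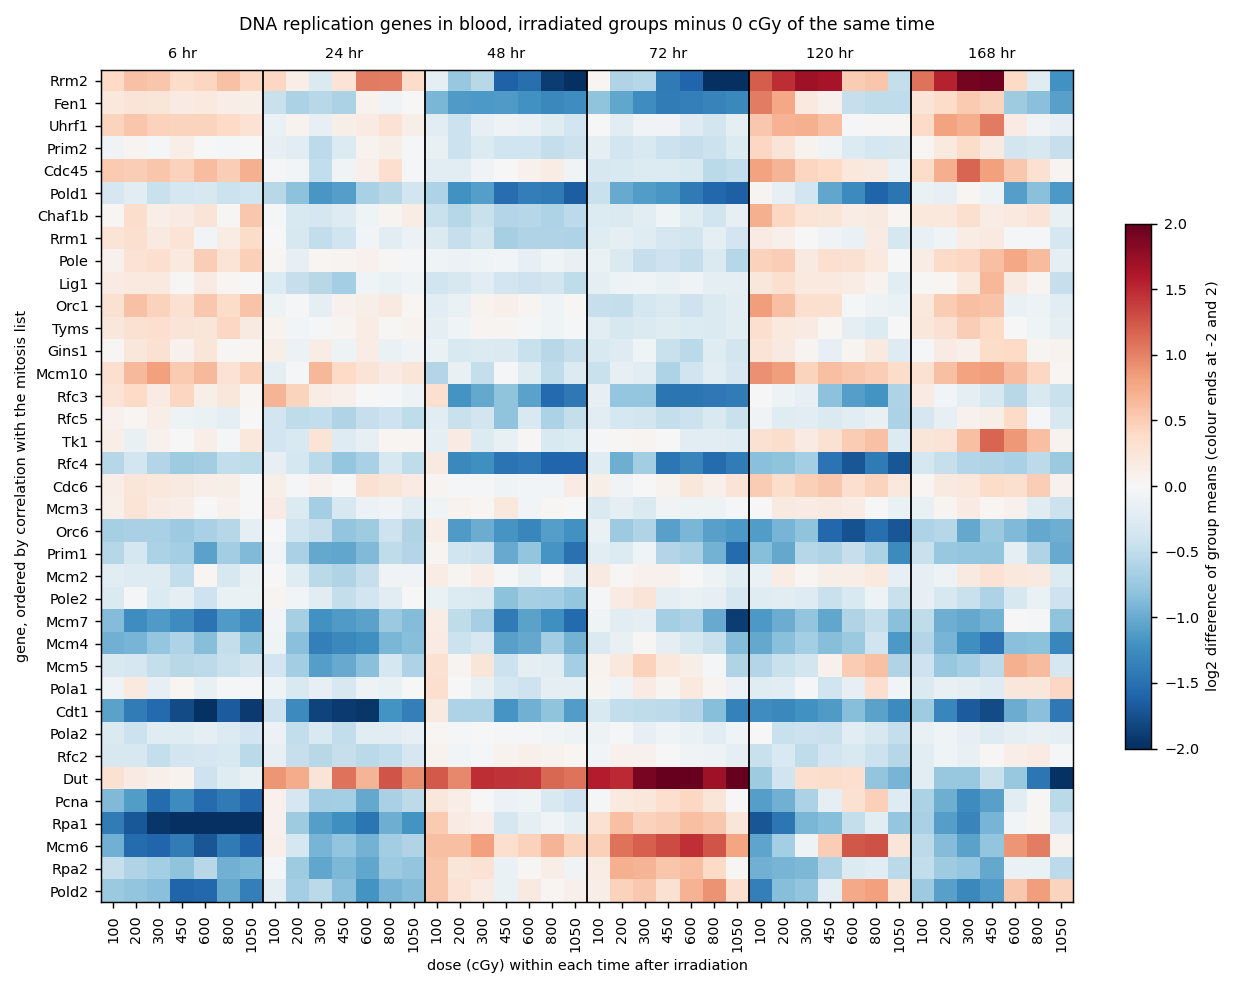
Difference of each irradiated group mean from the 0 cGy mean of the same time, in log2 units, for the 37 genes (rows, ordered by their correlation with the mitosis list) across 7 doses at each of 6 times (columns). Rrm2 is below control at 48 and 72 hr from 200 cGy up and above it at 100 to 450 cGy at 120 and 168 hr, while Rpa1, Pcna, Mcm6 and Pold2 are low at 6 hr at every dose.

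At 120 and 168 hr the response was not straight in dose. Rrm2 stood above control at 100 to 450 cGy at both times and at -0.48 and -1.21 at 1050 cGy, while Mcm6 and Pold2 stood below control at 200 cGy and above it at 600 and 800 cGy. A test of any difference between doses (moderated F) called 33 of the 37 genes at 120 hr, when 95.7% of all genes were called, and 33 at 168 hr, when 94.5% were, so a call at these times is near the background. The linear trend called 22 genes lower (47.0% of all genes) and 3 higher (35.4% of all genes) at 120 hr, and 16 lower (46.6% of all genes) and 6 higher (35.5% of all genes) at 168 hr. Because the response turned between doses, the slope and the 600 cGy difference of a gene can differ in sign, and 200 and 1050 cGy are compared with 0 cGy instead. Restricted to doses up to 300 cGy the slope called 15 genes at 120 hr, and leaving out arrays of high Alb, which removes the groups from 450 cGy up, also gave 15. Of the 25 genes of the 120 hr trend 13 changed sign over doses up to 300 cGy and 14 without high Alb, and of the 22 of the 168 hr trend 15 changed sign in either case. With the array spread as a covariate 17 were called (2 higher, 15 lower), and 12 of the 25 kept their call and direction. The controls differed too. Between the 0 cGy mice of 120 and 6 hr 6 genes were higher at 120 hr (19.8% of all genes) and 5 lower (20.1% of all genes). Between those of 168 and 6 hr 5 genes were higher at 168 hr (10.0% of all genes) and 1 lower (8.04% of all genes).

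At 200 cGy 9 genes were higher (37.5% of all genes) and 12 lower (29.6% of all genes) at 120 hr, and 7 higher (29.8% of all genes) and 13 lower (29.0% of all genes) at 168 hr. The genes above control at both times were Rrm2 (1.48 ± 0.27 at 120 hr and 1.54 ± 0.27 at 168 hr), the helicase genes Mcm10 (0.84 and 0.60) and Cdc45 (0.68 and 0.73), Orc1, Pole and Uhrf1, a reader of hemimethylated DNA (0.70 and 0.80). Those below control at both times included the licensing genes Cdt1 (-1.29 and -1.30), Mcm7 (-0.99 and -0.98) and Mcm4 (-0.83 and -0.93), and Rpa1 (-1.45 and -1.10), Pcna (-0.96 and -0.98) and Pold2 (-0.85 and -1.09). Thus Rrm2, Mcm10 and Cdc45 were high in the groups in which Pcna, Mcm4 and Mcm7 were low, while Gins1, the third helicase activation gene, did not pass (0.18 and 0.17). The array spread was lower in these groups, with a mean SD of 1.83 against 2.08 at 0 cGy at 120 hr and 1.82 against 2.03 at 168 hr. Over the 48 groups Rrm2, Mcm10 and Cdc45 correlated with the spread at -0.84, -0.82 and -0.84. Of the low genes named, Pold2 correlated with it at 0.83, Rpa1 at 0.81, Pcna at 0.79, Cdt1 at 0.43, Mcm4 at 0.33 and Mcm7 at 0.22. The part of the spread in these differences was not tested. Comparisons of several doses at a time share the 0 cGy mice.

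Rrm2 at 168 hr had levels of 6.65, 6.69, 6.75, 6.76 and 7.14 at 0 cGy, of 8.43, 8.68, 8.76, 8.86 and 9.0 at 450 cGy, and of 5.08, 5.20, 5.64, 5.72 and 6.31 at 1050 cGy. These 3 groups did not overlap, with controls in the middle. Uhrf1 had levels of 4.37, 4.37, 4.41, 4.50 and 4.64 at 0 cGy, of 5.33, 5.36, 5.48, 5.52 and 5.76 at 450 cGy, and of 4.21, 4.24, 4.27, 4.33 and 4.44 at 1050 cGy. For Uhrf1 only the 450 cGy mice stood apart from the controls.

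Tk1, which salvages thymidine, had levels of 5.72, 5.74, 5.79, 5.80 and 5.95 at 0 cGy and 168 hr and of 6.83, 6.89, 6.97, 7.04 and 7.13 at 450 cGy. Its difference was 1.17 ± 0.19. The proliferation marker Mki67, which is no member of the set, had levels of 5.61, 5.67, 5.69, 5.96 and 6.20 at 0 cGy and of 8.83, 8.95, 9.03, 9.12 and 9.68 at 450 cGy, a difference of 3.30 ± 0.31. In both genes every mouse at 450 cGy lay above every control.

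Pcna at 168 hr followed the opposite course, with levels of 10.41, 10.44, 10.52, 10.56 and 10.57 at 0 cGy, of 8.60, 9.16, 9.37, 9.43 and 9.68 at 300 cGy, and of 10.12, 10.18, 10.62, 10.78 and 10.93 at 800 cGy. It was low in every mouse at 300 cGy and back around the control range at 800 cGy. Mcm6 had levels of 7.27, 7.75, 7.79, 7.88 and 7.99 at 0 cGy, of 5.35, 6.74, 6.91, 6.94 and 7.38 at 300 cGy, and of 8.22, 8.64, 8.91, 8.95 and 9.05 at 800 cGy. At 800 cGy every mouse lay above the controls.

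At 1050 cGy 0 genes were higher (24.8% of all genes) and 19 lower (25.3% of all genes) at 120 hr, and 1 higher (26.7% of all genes) and 18 lower (33.3% of all genes) at 168 hr. Without replicate 3 the count at 120 hr was 11. At 120 hr Orc6 (-1.71 ± 0.19), Rfc4 (-1.70 ± 0.18), Pold1 (-1.46 ± 0.17) and Prim1 (-1.28 ± 0.19) were furthest down. At 168 hr Dut had levels of 7.62, 7.82, 7.86, 8.05 and 8.32 at 0 cGy and of 5.79, 5.87, 5.87, 6.11 and 6.19 at 1050 cGy, a difference of -1.97 ± 0.24 after its rise at 24 to 72 hr. The gene that rose at 168 hr was Pola1, the catalytic subunit of polymerase alpha (0.41 ± 0.15). Pcna fell there (-0.54 ± 0.22) against the controls of 168 hr, and stood at 0.09 against the 0 cGy mice of all times together, an alternative added after seeing the data.

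At 200 cGy 16 of 26 mitosis genes and 16 of 23 erythroid markers rose at 168 hr while 16 of 17 B cell markers fell. At 1050 cGy and 168 hr 21 erythroid markers, 11 mitosis genes and 10 of 13 platelet markers fell, and all 18 hepatocyte markers rose by a median of 8.03. Of the 38 other replication genes 20 fell and 9 rose at 200 cGy and 23 fell and 3 rose at 1050 cGy. The part of these cells and of liver RNA in the replication genes was not tested.

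The dose slope itself differed between 168 and 6 hr for 22 genes, steeper upward for 10 (35.2% of all genes) and steeper downward for 12 (43.5% of all genes). Pold2 had the largest upward change in slope, 0.25 ± 0.03 per 100 cGy, followed by Mcm6 (0.21 ± 0.04) and Rpa1 (0.20 ± 0.03), and Rrm2 the largest downward change (-0.21 ± 0.03), followed by Fen1 (-0.14 ± 0.02) and Dut (-0.12 ± 0.03). With the array spread as a covariate 7 genes were called, and 9 of the 22 changed sign. With arrays of high Alb left out 22 were called, but 19 of the first 22 changed sign.

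**Figure D2:**
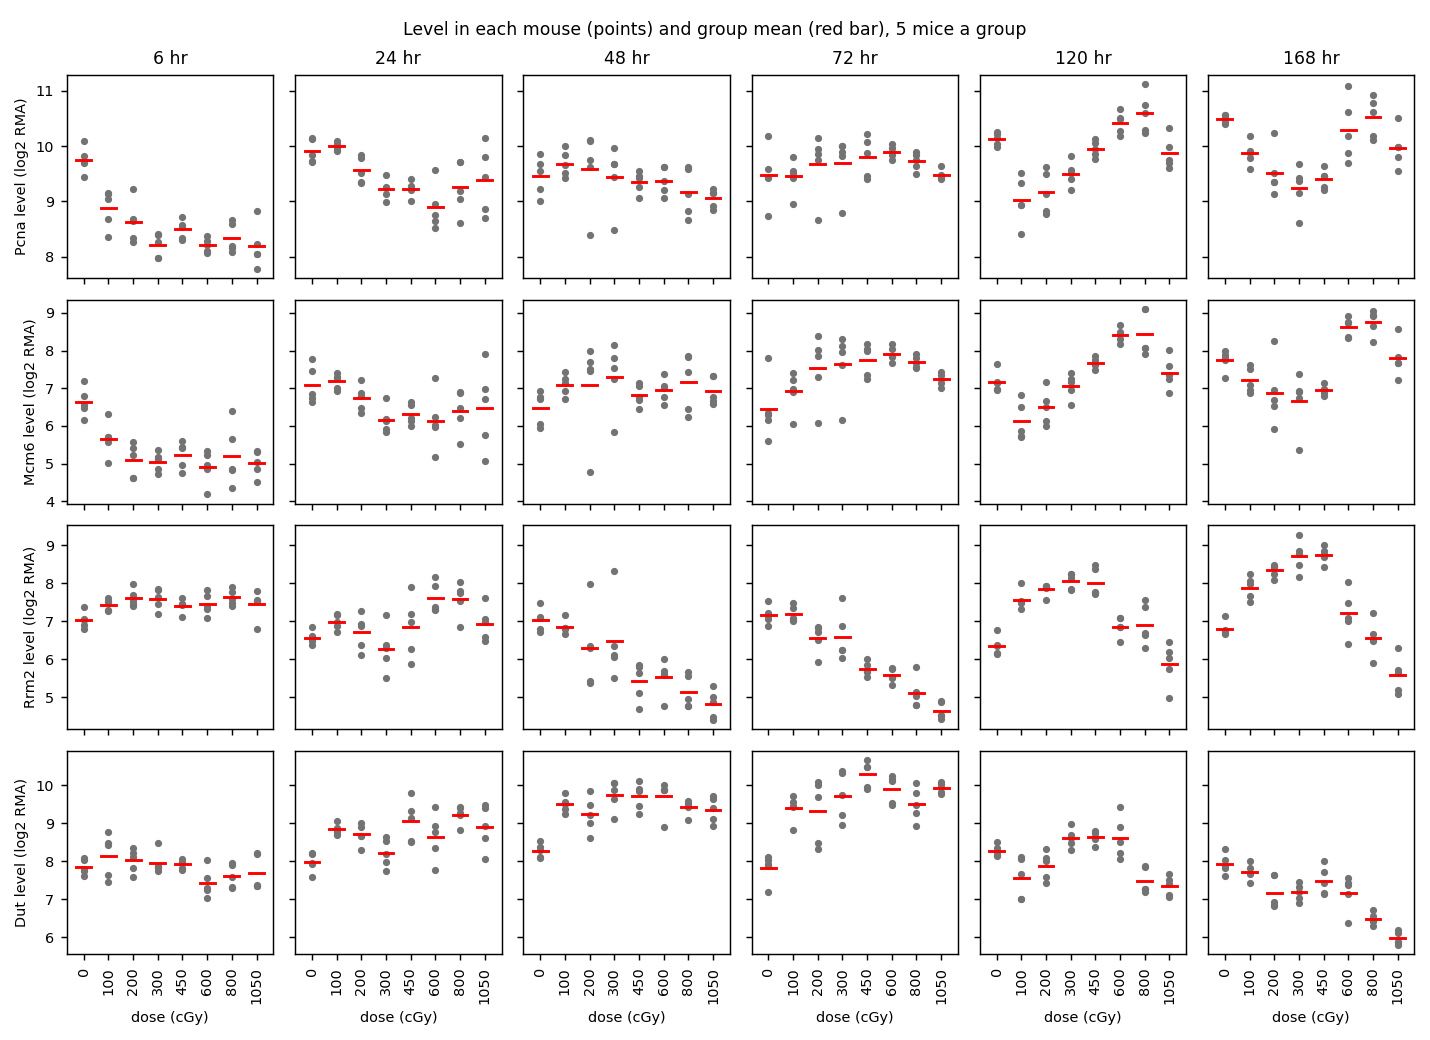
Level of Pcna, Mcm6, Rrm2 and Dut (rows, log2 RMA) in each mouse (points) with the group mean (red bar, n = 5) against dose in cGy at 6 times (columns). Pcna and Mcm6 drop between 0 and 100 cGy at 6 hr, Rrm2 falls with dose at 72 hr to between 4.43 and 4.91 at 1050 cGy, and Dut is raised at 72 hr and lowered at 168 hr.

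The genes did not move as 1 block. Over the 48 groups, as differences from the 0 cGy mean of the same time, the 666 pairs had a median correlation of 0.18 with a range from -0.86 to 0.93, with 192 pairs above 0.5 and 262 below 0. These are descriptions over group means that share controls and arrays, with no test. Pcna, Rpa1 and Mcm6 ran together (r = 0.93 for Pcna with each), as did Pold2 and Mcm6 (0.93). A second group held Fen1 and Prim2 (0.92), Rrm2, Uhrf1 and Cdc45, and Rfc4 ran with Orc6 (0.91). With the array spread, Pcna, Rpa1, Mcm6 and Pold2 correlated at 0.79 to 0.83. Fen1, Prim2, Rrm2, Uhrf1 and Cdc45 correlated with it at -0.97 to -0.84. The part of the spread in this split was not tested, and Fen1 and Prim2 are uncertain by their other probe sets. Tyms and Pcna, a nucleotide gene and the clamp, were furthest apart (-0.86).

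The same split showed against the marker lists. Rrm2 (0.95), Fen1 (0.91), Uhrf1 (0.89), Prim2 (0.87) and Cdc45 (0.80) followed the mean of the mitosis list, whereas Cdt1 (0.91), Mcm7 (0.77), Mcm4 (0.74), Prim1 (0.73) and Rpa1 (0.72) followed the mean of the B cell list. Neither tie was to 1 list only. With the erythroid list Rrm2 stood at 0.85, Fen1 and Prim2 at 0.86, Uhrf1 at 0.81 and Cdc45 at 0.67. With the T cell list Mcm4 stood at 0.79, Cdt1 at 0.77, Prim1 at 0.76, Mcm7 at 0.61 and Rpa1 at 0.43. Pcna correlated with the B cell list at 0.65 and with the mitosis list at -0.59, and Dut with the platelet list at 0.90. The mitosis list itself correlated with the array spread at -0.89 and the B cell list at 0.36. Outside the set, the genes whose pattern was most like the mean of the 37 were Cep55 (0.81), Srpk1 and Phgdh (0.78 each), Prpsap2, Mad2l1, Dus3l, Rsl1d1, Srrt, Smc3 and Sub1 (0.75 for the last).

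**Figure D3:**
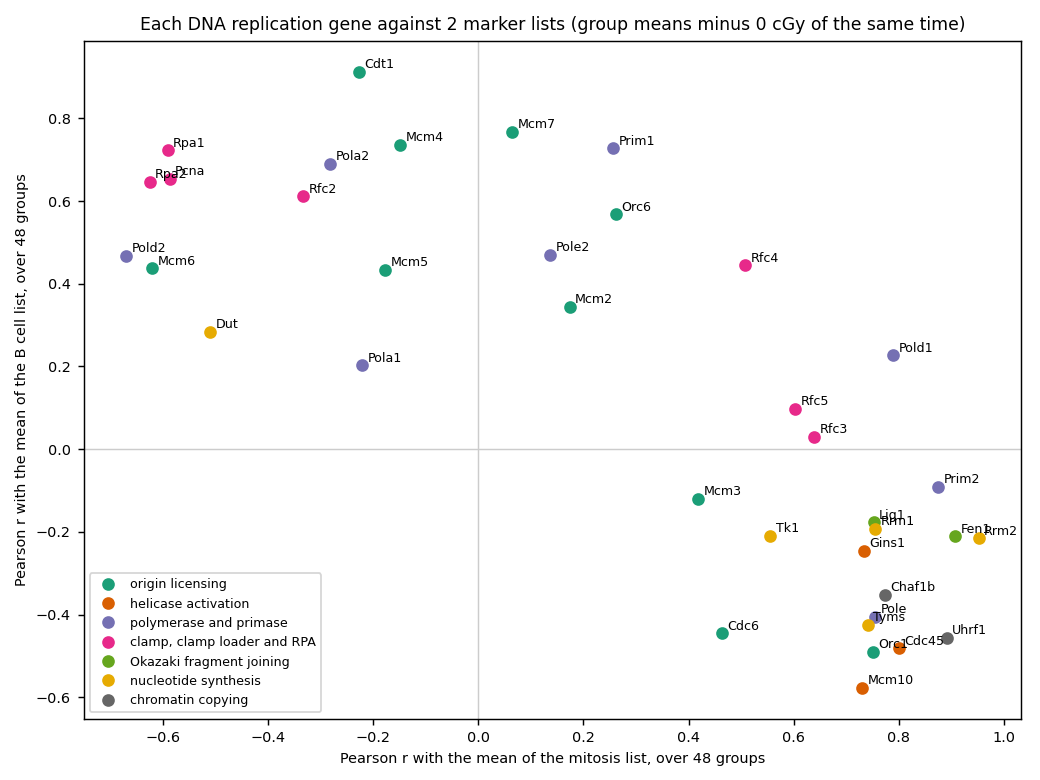
Pearson correlation of each replication gene with the mean of the mitosis list (horizontal) and of the B cell list (vertical) over 48 group means, coloured by role. Cdt1, Mcm7 and Mcm4 lie high on the B cell axis and Rrm2, Fen1 and Uhrf1 far right on the mitosis axis, so that genes of 1 role fall on different sides.

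At 24 hr LPS alone raised many of the genes, and under LPS radiation lowered many of them. Both comparisons use the same LPS mice at 0 cGy. Among unirradiated mice, 19 of the 37 genes were higher with LPS than with no agent (9.20% of all genes) and 2 were lower (12.7% of all genes). The rise took in 6 of 10 licensing genes, all 3 helicase activation genes, 4 of 8 polymerase and primase genes, 3 of 5 nucleotide genes and both chromatin genes, and 1 of 7 clamp, loader and RPA genes. Over the 37 genes the median difference was 0.36, against 0.02 over all genes. The mean over the genes in each mouse ran from 0.03 to 1.0 with LPS (median 0.33) and from -0.11 to 0.13 with no agent, which overlapped. The array spread in these groups had a median SD of 2.03 with LPS (1.85 to 2.20) and 2.05 with no agent (1.93 to 2.13). The part of the spread in the rise was not tested.

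Cdc6, which helps the origin recognition complex load the Mcm ring, had a lowest, median and highest level of 3.56, 3.95 and 4.06 in 10 mice with no agent. In 9 mice with LPS these were 4.45, 5.11 and 6.78. The groups did not overlap, and the difference was 1.41 ± 0.13 (adjusted p 4.0e-18). Rrm2 had levels of 6.50, 7.00 and 7.48 with no agent and of 7.84, 8.14 and 8.96 with LPS, and Gins1, a GINS subunit, of 5.70, 5.97 and 6.23 with no agent and of 6.34, 7.10 and 7.86 with LPS. Neither of these pairs of groups overlapped, with differences of 1.28 ± 0.24 for Rrm2 and 1.09 ± 0.13 for Gins1 (adjusted p 3.9e-13). Tk1 (0.88 ± 0.17), Mcm6 (0.86 ± 0.30), Rfc4 (0.83 ± 0.16), Orc6 (0.79 ± 0.16) and Mcm10 (0.72 ± 0.23) rose as well. Pcna did not pass, with levels of 9.78, 10.11 and 10.52 with no agent and of 9.64, 10.37 and 11.53 with LPS.

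The genes lower with LPS were Rpa1, with levels of 8.43, 8.91 and 9.62 with no agent and of 7.02, 7.53 and 9.35 with LPS (-1.15 ± 0.27), and Pold1 (-0.46 ± 0.16). Of the genes with an E2F word in the promoter 7 of 13 rose with LPS, among them the Cdc6, Mcm5, Mcm6, Pola1 and Uhrf1 sequences shown above, and of those without one 10 of 19 rose. Of 26 mitosis genes 20 rose with LPS, led by Bub1, a spindle checkpoint kinase (1.57), and 6 of 17 S phase regulators rose, including Ccne2, a cyclin of S phase entry (1.69). Of 16 neutrophil markers all rose (median 3.56), and all 17 B cell markers fell (median -2.35), with 16 of 19 T cell markers. Of the 38 other replication genes 8 rose, including Gmnn, the inhibitor of Cdt1 (1.23), and 6 fell. The part of the cell mixture was not tested. In an alternative added after seeing the data, 8 replication genes were called in female mice alone and 14 in male mice alone.

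**Figure D4:**
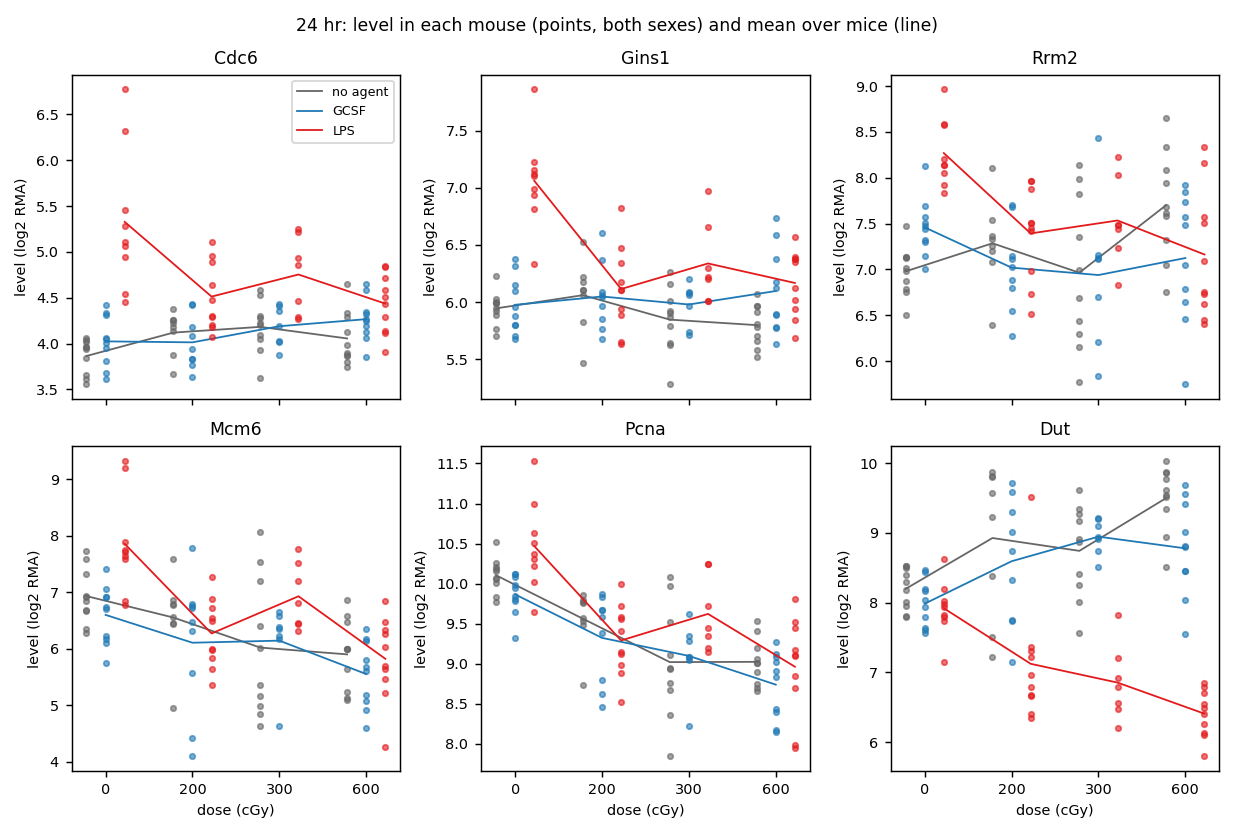
Level (log2 RMA) of Cdc6, Gins1, Rrm2, Mcm6, Pcna and Dut at 24 hr in each mouse (points, both sexes) against dose in cGy, with the mean over mice (line), for no agent, GCSF and LPS. LPS mice at 0 cGy lie above the mice with no agent at 0 cGy for Cdc6, Gins1 and Rrm2, and Dut falls with dose under LPS while it rises with no agent.

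With LPS at 24 hr, the dose trend over 0 to 600 cGy called 23 genes lower (9.80% of all genes) and 0 higher (3.25% of all genes). Mcm6 had levels of 6.77, 7.72 and 9.33 at 0 cGy and of 4.26, 5.86 and 6.84 at 600 cGy, with a small overlap and a difference of -1.98 ± 0.30 (adjusted p 1.2e-06). Pold2 (-1.64 ± 0.19), Rfc4 (-1.54 ± 0.16), Orc6 (-1.48 ± 0.16) and Pcna (-1.46 ± 0.19) followed. Cdc6 had levels of 3.90, 4.47 and 4.84 at 600 cGy with LPS and Gins1 of 5.69, 6.24 and 6.57, so that both overlapped the range of mice with neither LPS nor radiation. In females alone 16 genes were called and in males alone 23. The trend also lowered 17 of 26 mitosis genes, 12 of 17 B cell markers and 17 of the 38 other replication genes, among them Tipin, a fork protection factor (-1.73), and Dbf4, the activator of the kinase that fires origins (-1.69).

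With no agent at 24 hr the trend called 19 genes lower (22.9% of all genes) and 2 higher (18.3% of all genes), and the 2 higher were Dut (1.30 ± 0.23) and Rrm2 (0.72 ± 0.23). The slopes with LPS and with no agent differed for 9 genes, 6 more downward with LPS (9.13% of all genes) and 3 more upward (7.42% of all genes). With mouse number as a block fewer slopes differed, as given at the end. Dut differed most in slope, -0.45 ± 0.05 per 100 cGy (adjusted p 4.2e-11). Its levels were 7.79, 8.24 and 8.53 at 0 cGy and 8.51, 9.58 and 10.03 at 600 cGy with no agent, and 7.15, 7.93 and 8.63 at 0 cGy and 5.80, 6.44 and 6.85 at 600 cGy with LPS. Thus Dut at 600 cGy lay lower in every LPS mouse than in any mouse with no agent. Rrm2 followed (-0.28 ± 0.05), then Cdc6 (-0.15 ± 0.03), Pola1 (-0.11 ± 0.02), Gins1 (-0.09 ± 0.03) and Rrm1 (-0.07 ± 0.03), while Cdt1 (0.12 ± 0.04), Pold1 (0.10 ± 0.04) and Rfc2 (0.08 ± 0.02) had a less downward slope with LPS. Of 13 platelet markers 12 also had a more downward slope with LPS.

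**Figure D5:**
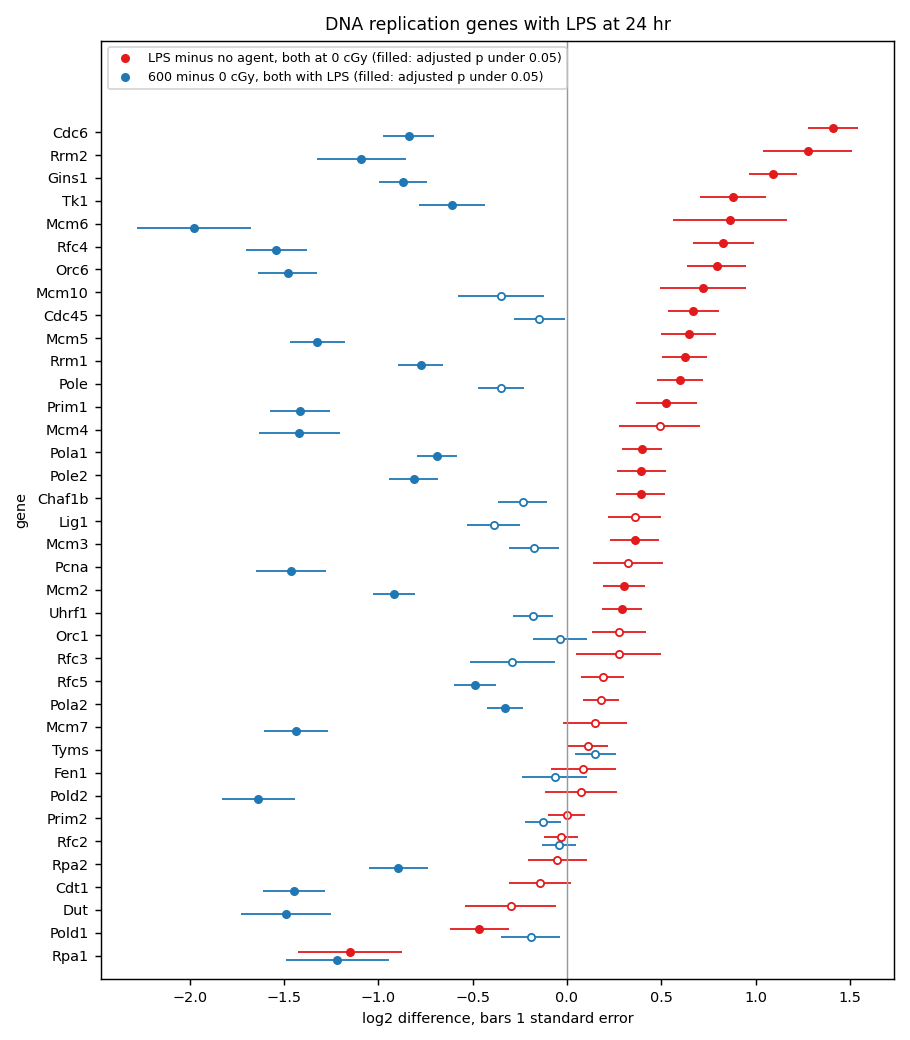
Log2 difference of each replication gene at 24 hr for LPS against no agent at 0 cGy (red) and for 600 against 0 cGy under LPS (blue), with bars of 1 standard error and filled points at an adjusted p under 0.05. Most red points lie right of 0 with Cdc6 highest at 1.41, and most blue points lie left of it with Mcm6 lowest at -1.98.

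At 6 hr fewer genes passed. At 0 cGy 8 genes were higher with LPS (14.8% of all genes) and 3 lower (20.5% of all genes). Mcm10 (0.91 ± 0.24), Cdc6 (0.71 ± 0.14), Gins1 (0.67 ± 0.13), Rrm2 (0.60 ± 0.25) and Cdc45 (0.55 ± 0.14) rose, and Rpa1 (-1.47 ± 0.29), Cdt1 (-0.51 ± 0.17) and Rfc2 (-0.23 ± 0.09) fell. Dose trends at 6 hr called 9 genes lower (12.4% of all genes) and 3 higher (7.55% of all genes) with no agent, 17 lower (23.9% of all genes) and 4 higher (28.7% of all genes) with GCSF, and 10 lower (15.8% of all genes) and 4 higher (16.4% of all genes) with LPS. Rpa1, Cdt1, Mcm6, Pold2 and Pcna were among the fallers with each agent and with none, as in the dose-time set. With the mouse at 1 position of each group left out, the count of 12 with no agent was 6 without replicate 4. The count of 14 with LPS was 8, 7 and 9 without replicates 2, 3 and 5. The count of 11 for LPS at 0 cGy was 7, 5 and 7 without replicates 1, 2 and 4.

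GCSF by itself moved no replication gene past the test in these sets. At 0 cGy limma called 0 genes at 6 hr (0 at an unadjusted p under 0.05), when 0% of all genes were called, and 0 at 24 hr (6 unadjusted), when 0.331% of all genes were higher and 0.218% lower. Its dose trend at 24 hr called 20 genes lower (17.4% of all genes) and 1 higher (13.2% of all genes), the riser again being Dut (0.79 ± 0.23). Slopes differed between GCSF and no agent for 0 genes in limma at 24 hr (5 unadjusted; 0.00807% of all genes higher and 0% lower) and 0 at 6 hr (6 unadjusted; 0.0161% higher and 0% lower). For LPS at 6 hr 0 slopes passed (4 unadjusted), against 2.49% of all genes higher and 3.95% lower. Between male and female mice at 0 cGy 0 of the genes passed, against 0.210% of all genes higher in males and 0.605% lower, with 15 of the 37 at an unadjusted p under 0.05.

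In the smaller agent set at 6 hr, 600 cGy lowered 24 genes with LPS (9.55% of all genes) and raised 0 (6.46% of all genes), led by Cdt1 (-1.51 ± 0.22), Pold2 (-1.33 ± 0.23) and Mcm6 (-1.27 ± 0.22). With GCSF it lowered 16 (14.1% of all genes) and raised 0 (10.9% of all genes), led by Pold2 (-1.78 ± 0.24). With no agent 3 fell (1.86% of all genes), namely Pold1, Cdt1 and Fen1, and 0 rose (5.51% of all genes). Rpa1, Mcm6, Pold2, Pcna, Mcm7 and Prim1, which fell in the dose-time set at this dose and time, did not pass here. The lowest difference of any replication gene was -0.80, against -2.26 in that set, and 7 had an unadjusted p under 0.05 in limma. Fen1 stood at 0.19 in that set. At 150 cGy 4 fell with no agent (1.07% of all genes, 2.77% higher), 2 with GCSF (0.807% of all genes, 0.960% higher) and 4 with LPS (2.40% of all genes, 1.19% higher). LPS at 0 cGy raised 5 (10.2% of all genes), among them Rrm2 (1.03 ± 0.21), Mcm10 (0.66 ± 0.12) and Cdc45 (0.61 ± 0.13), and lowered Rpa1 (-0.80 ± 0.18), 1 gene (16% of all genes). With GCSF at 0 cGy 0 passed (6 unadjusted), against 0.484% of all genes higher and 0.0646% lower. These counts rested on few mice. Leaving out the mouse at 1 position of each group gave 10 to 24 for 600 cGy with LPS (10 without replicate 5). For 600 cGy with no agent it gave 0 to 6. It gave 0 to 17 for 150 cGy with no agent (17 without replicate 6), 0 to 5 with LPS and 0 to 3 with GCSF. For LPS at 0 cGy it gave 5 to 10 (10 without replicate 2). Quantile normalization gave 0 for 150 cGy with GCSF and 11 for LPS at 0 cGy. With mouse number as a block more genes were called at 150 cGy with no agent and with LPS, as given at the end.

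In the 7-day set, 150 cGy at 168 hr raised 6 genes (33.8% of all genes) and lowered 17 (33.3% of all genes). Rrm2 rose by 1.23 ± 0.32, Mcm10 by 0.90 ± 0.25 and Cdc45 by 0.82 ± 0.17, with Orc1, Fen1 and Uhrf1, and Pold2 (-1.76 ± 0.23), Rpa2 (-1.72 ± 0.18), Rpa1 (-1.68 ± 0.31) and Rfc4 (-1.66 ± 0.19) fell most. The array spread moved here too, from a median SD of 2.22 in the 3 control mice to 1.96 in the irradiated ones. Gins1 did not pass (-0.12 ± 0.16). Rrm2, Mcm10 and Cdc45 were above control in the group in which the clamp (Pcna at -0.87 ± 0.18) and the licensing genes Cdt1 and Mcm4 to Mcm7 were below it.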

How the data were processed

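Globin-reduced blood RNA of 534 mice in 109 groups was measured on 536 Affymetrix Mouse 430A 2.0 arrays. The authors deposited log2 values of 22690 probe sets, which the submitters' processing notes credit to RMA in affy; the version, and whether all arrays were normalised together, are not given in the sources used here. Values ran from 2.17 to 14.85, with array medians from 5.61 to 5.93, and the number of arrays limits precision. Repeat scans of 2 mice were averaged (SD between scans 0.25 and 0.21).

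Of the probe sets, 64 controls, 1555 with no symbol and 691 with several were left out, and the brightest of each gene gave 12393 genes. Group means were fitted in each set with limma 3.58.1 in R 4.3.3, with Benjamini-Hochberg adjustment over all genes at 0.05. Dose trends are least-squares contrasts, and the scripts were tested on simulated data. Described values came from Python 3.11.15. Errors are standard errors of the fit. Same-numbered mice did not deviate together (mean r of residuals 0.02 in the dose-time set, 0.04 in the agent set, 0.06 in the smaller agent set and -0.13 in the 7-day set), so the numbers were not used as pairs.

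The members, marker lists and tests were chosen with earlier results of these data known. Any member could be named. Mouse values were drawn from the 3 rising and 3 falling called members with the largest differences, with Pcna, Mcm2, Mcm6, Rrm2, Tyms, Lig1, Dut and Cdc6; of the replication, S phase and mitosis lists up to 3 genes with the smallest p in each direction were named, of cell type lists only counts and defining genes, and the 10 non-members most like the mean. Further members were chosen after their values were seen. Alternatives covered normalization, probe set choice, dim genes, title code, replicate numbers, array spread, high Alb, doses and left-out mice. Gins2 and Chaf1a were not analysed here.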

Additional observations from a re-analysis of the deposited data

Results flagged for a closer look

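In 103 groups of 4 to 10 mice, the mean over the 37 genes in each mouse (relative to the 0 cGy mean) was searched for a mouse far from its group, as were 46 groups for printed genes, and chance alone gives about 1 in 20. For the mean, 4 groups held such a mouse. They were the highest mouse of the dose-time set at 200 cGy and 168 hr (0.11, others -0.28 to -0.19), the lowest male with GCSF at 0 cGy and 6 hr (-0.35, others -0.13 to -0.07), the lowest male with no agent at 600 cGy and 24 hr (-0.64, others -0.42 to -0.34), and the highest mouse of the smaller agent set with GCSF at 0 cGy (0.16, others -0.18 to -0.10).

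For single genes, the lowest mouse stood apart for Rpa1 at 600 cGy and 6 hr (5.44), Cdc45 at 1050 cGy and 6 hr (5.15) and Dut at 0 cGy and 72 hr (7.18), and the highest for Rrm2 at 0 cGy and 168 hr (7.14).

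Contrasts that differed between groups by their own limma test were dose slopes. The slope with LPS against no agent at 24 hr differed for 9 of the 37 genes (16.55% of all genes). The slope at 168 against 6 hr differed for 22 (78.7% of all genes).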

How the results depend on the processing

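Over 347 recomputed counts of called genes, 296 stayed within 1.5 times the reported count. The cause of the other changes was not tested. The 6 hr trend (14 genes) gave 9 with dim genes left out, which tests fewer genes, and 3 without the 0 cGy mice. The 24 hr trend (18) gave 11 with the array SD as covariate and 11 without the 0 cGy mice. The 72 hr trend (23) gave 15 without arrays of Alb at 10 or more and 14 without the 0 cGy mice. The 120 hr trend (25) gave 15 without those Alb arrays and 15 over 0 to 300 cGy. The slope change from 6 to 168 hr (22) gave 7 with the array SD as covariate. LPS at 0 cGy and 24 hr (21) gave 8 in females alone. In the smaller agent set quantile normalization gave 0 for 150 cGy with GCSF (2) and 11 for LPS at 0 cGy (6). Dropping the 0 cGy mice, pooling them over times and splitting LPS by sex were chosen after seeing the data.

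Leaving out the mouse at 1 position of each group gave 9 to 15 for the 6 hr trend, 10 to 20 at 24 hr and 11 to 17 for 1050 cGy at 120 hr. In the agent set it gave 6 to 12 for the 6 hr trend with no agent, 7 to 12 with LPS and 5 to 12 for LPS at 0 cGy and 6 hr. In the smaller agent set it gave 0 to 17 for 150 cGy with no agent, 0 to 6 for 600 cGy with no agent, 0 to 3 for 150 cGy with GCSF, 0 to 5 for 150 cGy with LPS, 10 to 24 for 600 cGy with LPS, 0 to 1 for GCSF at 0 cGy and 5 to 10 for LPS at 0 cGy.

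Mouse number as a block left 34 of 37 counts within 1.5 times. The others were the LPS slope difference at 24 hr (5 against 9), 150 cGy with no agent (14 against 4) and 150 cGy with LPS (10 against 4).

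Of 1711 recomputed named-gene values 5 changed sign: the Dut trend at 48 hr (-0.0089 per 100 cGy without the 0 cGy mice), the Mcm6 and Pold2 trends at 72 hr (-0.0077 and -0.0021 with the array SD as covariate), Rfc2 with LPS at 0 cGy and 6 hr (0.0039 with quantile normalization), and Pcna at 1050 cGy and 168 hr (0.0915 against 0 cGy mice of all times). Among all called genes, direction also turned over low doses or without high Alb in the 120 and 168 hr trends (13 to 15 genes) and the slope change from 6 to 168 hr (19 without high Alb). With the array SD as covariate 2 genes turned at 72 hr, 6 at 120 hr, 5 at 168 hr and 9 in the slope change. Other settings turned 0 to 3 genes of a comparison, among them quantile normalization with 2 in the 168 hr trend and females alone with 3 for LPS at 0 cGy and 24 hr.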
